A study of Mus musculus with 18 samples.

Results

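The 38 genes described here encode nucleolar proteins and factors that make ribosomes, and they were chosen by gene name from the 20207 genes listed for each library. All 38 were listed in all 18 libraries, all 38 had at least 1 read in every library and entered the tests, and the lowest count of any of them in any library was 104 reads (Wdr12). The libraries came from NIH3T3, an established line of mouse fibroblasts, carrying DD-sfGFP, a green fluorescent protein joined to a destabilizing domain, which its ligand S1 stabilizes. According to the study's methods, the fusion gene had been stably integrated with a PiggyBac transposon vector and the cells sorted for high GFP, and S1 was kept on the cells in every group used here, so the controls also held the folded fusion protein. Control cells received no stress (time 0 min), heat-shocked cells were collected at 45 and 135 min, and cells given tunicamycin, a blocker of N-linked glycosylation that causes misfolding in the endoplasmic reticulum, at 45, 135 and 405 min. Each of these 6 groups had 3 libraries of poly(A) RNA. There was no heat shock group at 405 min, and no vehicle-treated tunicamycin control was used here.

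Ribosomes are built in the nucleolus, where RNA polymerase I transcribes the long precursor of most ribosomal RNAs. Small nucleolar ribonucleoproteins of the box C/D and box H/ACA classes guide methylation and pseudouridylation of that precursor, large processing complexes cleave it, and assembly factors build the small and the large subunit around it. Because ribosome production takes up much of the biosynthetic capacity of a growing cell, the genes for these proteins are well known to be under the control of growth signals, among them the transcription factor MYC, which binds the E-box CACGTG.

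RefSeq promoter windows (GRCm38.p6, from 250 bases before to 50 bases after the annotated start) were given for 32 of the 38 genes. They were not given for Fbl, Npm1, Bop1, Rrs1, Rrp12 and Tcof1. The E-box CACGTG, which reads the same on both strands, lay in the windows of 6 of the 32 genes (18.75%), against 11.72% of the tested genes with a window and 8.093% of all genes with one. These were Imp4 and Nop2, with the motif 121 and 60 bases before the start, and Utp20, Pes1, Mybbp1a and Wdr43, with the motif after it. The palindromic heat shock element core, TTCNNGAA or GAANNTTC, was found in 3 of the 32 windows (Bysl, Gar1 and Wdr12, 9.375%, against 13.92% of tested genes), and TGACGTCA, the binding sequence of ATF and CREB factors, in 0 of 32 (against 3.569%). Such a match describes the letters in a window and is not a bound site. Below, the E-box is in capitals. Nop2 is shown for its E-box upstream of the start (chr6:125131633-125131932, + strand), Ebna1bp2 because it had the largest rise described below (chr4:118620549-118620848, + strand), Imp3 because it fell under heat shock and rose under tunicamycin (chr9:56937250-56937549, + strand), and Polr1b because it was below every control in every stressed library (chr2:129100746-129101045, + strand).
Nop2: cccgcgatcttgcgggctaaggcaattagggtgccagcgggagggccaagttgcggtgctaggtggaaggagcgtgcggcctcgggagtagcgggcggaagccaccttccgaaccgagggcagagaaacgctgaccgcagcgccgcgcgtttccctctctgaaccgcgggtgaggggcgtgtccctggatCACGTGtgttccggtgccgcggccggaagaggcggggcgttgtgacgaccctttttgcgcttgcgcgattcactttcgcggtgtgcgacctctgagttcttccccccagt
Ebna1bp2: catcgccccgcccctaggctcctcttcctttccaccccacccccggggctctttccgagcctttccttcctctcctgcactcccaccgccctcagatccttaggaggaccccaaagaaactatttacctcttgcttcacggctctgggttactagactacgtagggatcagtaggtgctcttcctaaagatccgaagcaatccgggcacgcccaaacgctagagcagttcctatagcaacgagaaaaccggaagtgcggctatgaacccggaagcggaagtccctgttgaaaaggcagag
Imp3: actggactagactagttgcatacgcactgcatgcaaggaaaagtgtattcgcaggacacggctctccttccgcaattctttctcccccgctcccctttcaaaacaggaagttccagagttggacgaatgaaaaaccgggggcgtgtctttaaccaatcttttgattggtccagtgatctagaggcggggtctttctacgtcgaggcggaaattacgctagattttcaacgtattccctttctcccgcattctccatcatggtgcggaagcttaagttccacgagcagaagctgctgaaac
Polr1b: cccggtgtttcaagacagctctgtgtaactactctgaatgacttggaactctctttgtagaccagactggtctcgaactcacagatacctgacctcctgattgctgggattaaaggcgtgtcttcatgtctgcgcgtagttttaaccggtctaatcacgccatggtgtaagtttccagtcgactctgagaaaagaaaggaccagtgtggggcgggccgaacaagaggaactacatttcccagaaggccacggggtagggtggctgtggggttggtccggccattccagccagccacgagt

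Before the results, 4 libraries have to be named that stood apart from the rest. In heat shock 45 min replicates 1 and 2, heat shock 135 min replicate 2 and tunicamycin 135 min replicate 1, transcripts rich in GC were high and those poor in GC were low. The median deviation of the 25% of genes richest in GC exceeded that of the 25% poorest by 0.68 to 1.23 on the log2 scale in these 4 libraries, and by -0.69 to 0.17 in the other 14, with the 38 genes left out of this measure. A single axis held 70.6% of all the spread within groups. The genes described here followed it: over the 38, the GC content of the longest coding transcript had a Spearman correlation of 0.82 with the weight on the axis (0.71 over all tested genes, a description across genes that share the libraries), and 4 of them, Nop10, Dkc1, Npm1 and Wdr12, lay among the 5% of tested genes that the axis lowered most. Nop10, a small protein of the H/ACA particle, had 2.06 and 3.05 CPM (reads scaled to a common library size, by TMM over all 18 libraries) in heat shock 45 min replicates 1 and 2 and 58.2 in replicate 3. Npm1, nucleophosmin, had 86.5 and 114 against 653 CPM, and Dkc1, the pseudouridine synthase dyskerin, 9.12 and 11.7 against 78.3 CPM. In the 45 min heat shock group, 8 of the 38 genes were over 2-fold lower and 3 over 2-fold higher in the libraries that stood apart than in the other one. The number over 2-fold lower was 6 at 135 min of heat shock and 3 at 135 min of tunicamycin. The matching shares of all tested genes were not determined, so these counts do not set the 38 apart from other genes. The part of RNA quality or library preparation in this split was not tested. Counts of calls in the comparisons these libraries enter are given with and without them.

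**Figure D1:**
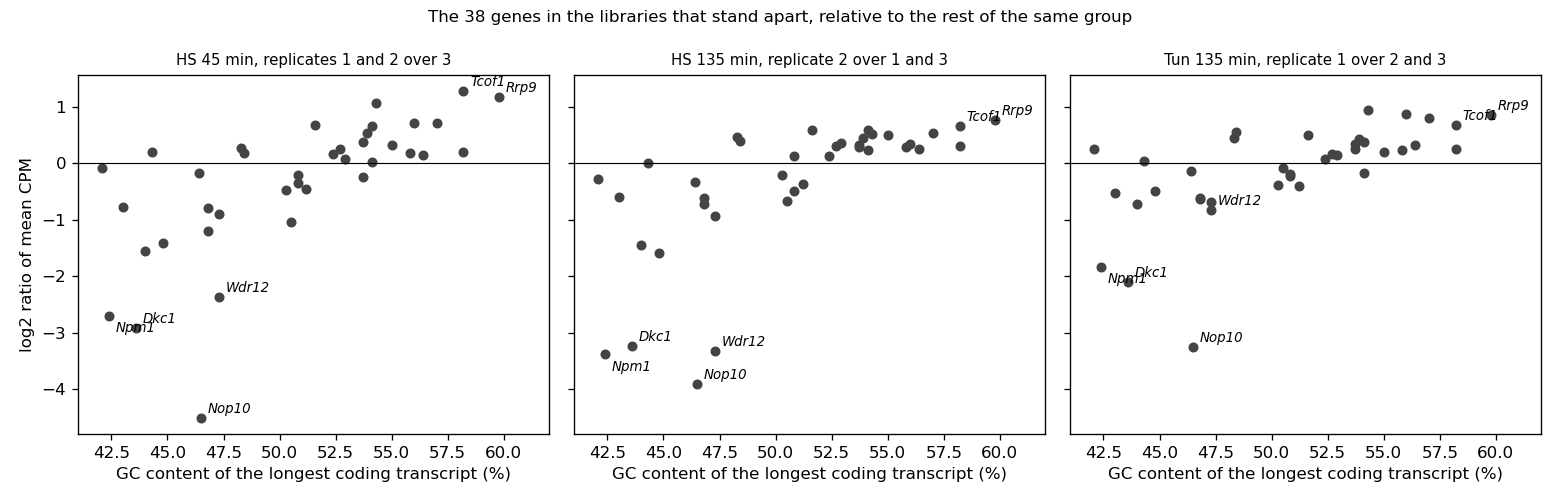
Each point is 1 of the 38 genes, with the GC content of its longest coding transcript (%) on the x axis and, on the y axis, the log2 ratio of its mean CPM in the libraries that stand apart to that in the rest of the same group (left, heat shock 45 min; middle, heat shock 135 min; right, tunicamycin 135 min). The GC-poor genes Nop10, Npm1 and Dkc1 lie far below the line at 0 in all 3 panels, down to -4.51 in the left one. Not all GC-poor genes do so. From left to right, Nop58 (42.1% GC) lies at -0.077, -0.273 and 0.26, and Wdr43 (44.3%) at 0.204, 0.002 and 0.048.

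Control replicate 1 also differed from the other controls in these genes. In it, 31 of the 38 (81.58%) were below both other controls, against 45.5% of all tested genes. On the GC measure above it was at 0.06, against -0.66 and -0.67 in the other controls. Utp14a was at 0.387 of the mean of the other controls, Npm1 at 0.394 (435 against 1059 and 1151 CPM) and Ebna1bp2 at 0.4 (61.6 against 163 and 144.5 CPM). The 38 genes together took 0.568% of the reads in control replicate 1 and 0.902% and 0.843% in the others, and between 0.529% and 0.933% over all libraries. Total reads on genes ran from 33415742 to 66478415 per library. A floor of 3 reads thus corresponded to 0.0451 to 0.0898 CPM, far below every value given for the 38 genes. The fibroblast markers Col1a1, Col1a2, Vim and Fn1 were at 2975 CPM or more of total reads in every library and Pdgfrb at 66.3 or more, while the epithelial Epcam and the leukocyte marker Ptprc reached at most 0.0548 and 0.0346 CPM, the endothelial Pecam1 0.227 and the epithelial Cdh1 0.534. The heat shock genes Hspa1b and Hsph1 averaged 772.8 and 1914 CPM of total reads at 135 min of heat shock against 5.94 and 209 in the controls, and 161 and 404 at 45 min of heat shock. The endoplasmic reticulum chaperone Hspa5 averaged 1052, 430 and 8836 CPM at 45, 135 and 405 min of tunicamycin against 715 in the controls, so that its mean at 135 min was below that of the controls. Ddit3, a transcription factor induced by such stress, averaged 605, 213 and 2571 CPM against 74.2. At 45 and 135 min of heat shock Hspa5 averaged 610 and 1232 CPM, and Ddit3 171 and 323 CPM. At 135 min both were thus higher with heat shock than with tunicamycin.

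In unstressed cells, the levels of the 38 genes per length of gene model spanned from 4.52 ± 1.62 RPKM (SD, n = 3) for Polr1e, the Pol I subunit also called PAF53, to 604.5 ± 281 for Npm1. After Npm1 came Fbl, the methyltransferase fibrillarin of box C/D particles (274 ± 24.2 RPKM), and its partner Nop56 (186 ± 52.6 RPKM). Mybbp1a, a nucleolar MYB-binding protein, followed at 164 ± 26.2 RPKM, Ncl, nucleolin, at 129.5 ± 39.9 and the H/ACA protein Nhp2 at 119.5 ± 23.4. The ranges of Npm1 and Fbl over the 3 controls did not separate them, because control replicate 1 had 283 RPKM of Npm1 and the highest control value of Fbl was 290.4. The other 32 genes lay between 4.52 and 85 RPKM on average. The counts of Npm1, which has many pseudogenes, are uncertain, since the counting of reads that match several places is not given in the sources used here. The same holds where gene models overlap: Bop1 shares 2023 bases with Scx, Bysl 358 with Ccnd3, Ncl 68 with the small nucleolar RNA gene Snord82, and Nhp2, Dkc1, Bop1 and Nop56 from 2 to 44 bases with Rmnd5b, Mpp1, Heatr7a and Idh3b. Whether strand was used in counting is not given in the sources used here.

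**Figure D2:**
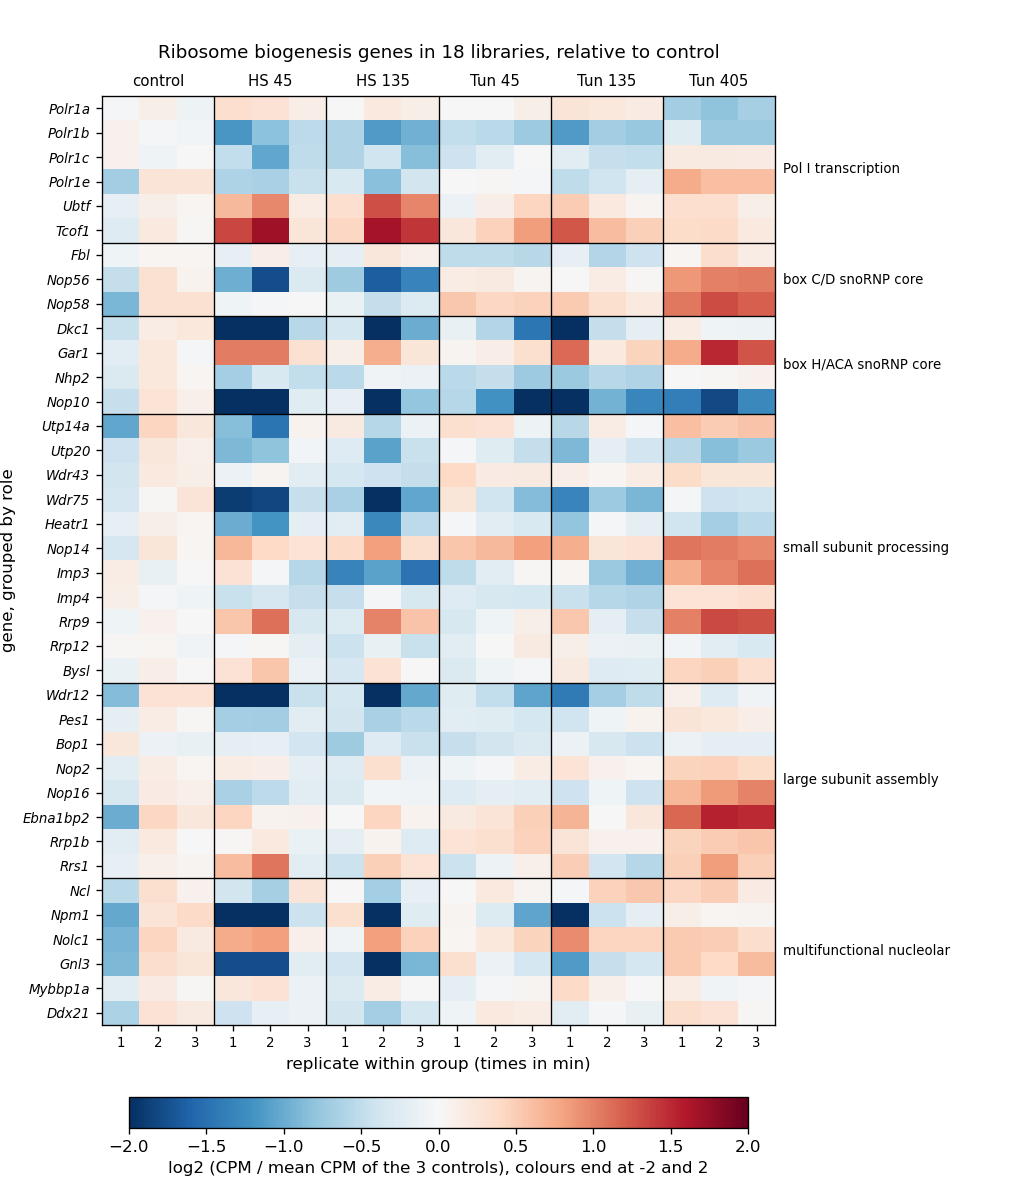
Colour gives the log2 ratio of CPM to the mean of the 3 controls for each of the 38 genes (rows, grouped by role) in each of 18 libraries (columns, replicates 1 to 3 within each group, times in min; colours end at -2 and 2). The columns of tunicamycin 405 min are alike and mostly red, with Polr1a, Polr1b, Nop10, Utp20 and Heatr1 clearly blue, whereas heat shock replicates differ widely within a group.

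After 45 min of heat shock no gene of the 38 passed the test, in either direction. The test was edgeR's quasi-likelihood test on the rounded counts of 3 against 3 libraries, with Benjamini-Hochberg adjustment over 12731 genes and a threshold of 0.05 for the adjusted p. It called 0.0% of all tested genes higher and 0.0% lower in this comparison. At an unadjusted p under 0.05, 3 of the 38 were higher and 5 lower (all tested genes: 12.3% and 7.17%), and the DESeq2 Wald test and edgeR's exact test also called 0 of the 38 (all tested genes: 3.03% higher and 0.518% lower in DESeq2, 1.97% and 0.306% in the exact test). The median log2 difference of the 38 was -0.22, against -0.03 over all tested genes. The genes with the smallest p were Polr1b and Tcof1. Polr1b (chromosome 2 of mm9, 128926732 to 128952330), the second-largest subunit of RNA polymerase I, had 94.5, 86.5 and 85.1 CPM in the controls and 39.7, 50.2 and 61.6 CPM in the heat-shocked libraries, so that the groups did not overlap (12.8% of all tested genes lay wholly below the controls in this comparison and 12.5% wholly above). Its log2 difference was -0.81 (SE 0.223, adjusted p = 0.227 in edgeR). Tcof1, or treacle, which helps to recruit Pol I to the rRNA genes, had 125, 170 and 150 CPM in the controls and 376, 479 and 176 under heat shock. All 3 stressed values lay above the controls, the third barely (log2 difference 1.21, SE 0.367, adjusted p = 0.227 in edgeR). Without the 2 libraries that stood apart, the one left, assumed to vary like the controls, again gave 0 calls among the 38, at 0.0% of all tested genes in either direction. Without that library instead, so that both libraries standing apart were left, 5 of the 38 were called higher and 12 lower, beside 21.5% and 24.0% of all tested genes.

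At 135 min of heat shock 2 genes fell, Imp3 and Polr1b, and 0 rose. Over all tested genes, 2.64% were called lower and 4.75% higher. Imp3 (chromosome 9 of mm9, 56785307 to 56786205) is a component of the U3 particle, which cleaves the rRNA precursor on the way to the small subunit. It had 50.3, 41.4 and 45.3 CPM in the controls and 18.1, 21.9 and 16.4 CPM at 135 min, a fold change of 0.411 (log2 -1.28, SE 0.216, adjusted p = 0.0204 in edgeR). The heat-shocked values were close together and all under the lowest control. Polr1b had 58.7, 40.4 and 45.3 CPM at 135 min, below all 3 controls (log2 -0.88, SE 0.211, adjusted p = 0.046 in edgeR). The Polr1b call was lost when heat shock replicate 2 or 3 or any one of the controls was left out, and without heat shock replicate 2, the library that stood apart, the log2 difference was -0.74 (adjusted p = 0.0588 in edgeR). The Imp3 call remained without that library (-1.38, adjusted p = 0.00862 in edgeR, beside 4.0% of all tested genes called lower) and was lost without control replicate 2 or 3 or heat shock replicate 3. With heat shock replicate 1 left out, 3 genes were called lower and 3 higher, beside 7.32% and 12.0% of all tested genes.

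Of the 36 other genes, 7 lay on 1 side of all the controls and were lower and 3 were higher (over all tested genes, 19.0% and 18.1% were apart from the controls in these directions). At an unadjusted p under 0.05, 6 of the 38 were lower and 2 higher (all tested genes: 13.5% and 16.1%). The DESeq2 Wald test called 4 lower and 2 higher (all tested genes: 7.28% and 9.68%), and edgeR's exact test 3 and 2 (6.45% and 9.14%). Nop56 came closest among those lower: 296, 506 and 428 CPM in the controls and 251.5, 131 and 162 CPM at 135 min (log2 -1.18, SE 0.313, adjusted p = 0.0579 in edgeR). Ubtf, the factor UBF that binds along the rRNA genes, was on the other side, with 176.5, 213 and 202 CPM in the controls and 248, 479 and 387 CPM under heat shock (log2 0.91, SE 0.269, adjusted p = 0.073 in edgeR). Tcof1 gave 198, 472 and 400 CPM (log2 1.27, adjusted p = 0.0557 in edgeR). In both, heat shock replicate 2 was the highest, and both transcripts are rich in GC. The median log2 difference of the 38 was -0.27, against -0.02 over all tested genes.

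At 45 min of tunicamycin 2 genes fell and 0 rose, against 2.17% and 4.01% of all tested genes. Fbl (chromosome 7 of mm9, 28954767 to 28964288) had 348.5, 383 and 383 CPM in the controls and 261, 262 and 252 CPM with tunicamycin, a narrow range well below the controls (fold change 0.703, log2 -0.51, SE 0.117, adjusted p = 0.0468 in edgeR). Polr1b had 63.4, 60.8 and 53.4 CPM, again below every control (fold change 0.675, log2 -0.57, SE 0.131, adjusted p = 0.0469 in edgeR). Both calls stand just inside the threshold: each was lost when control replicate 2 or 3 or any one of the tunicamycin libraries was left out, and without control replicate 1 the counts were 4 lower and 1 higher (all tested genes: 8.7% and 10.9%). Fbl at 45 min of heat shock was at 333, 408 and 332 CPM, on both sides of the controls. At an unadjusted p under 0.05, 3 of the 38 were higher and 5 lower with tunicamycin at 45 min (all tested genes: 14.1% and 11.5%). DESeq2 and edgeR's exact test each called 1 higher and 3 lower (all tested genes: 7.63% and 6.84% in DESeq2, 7.06% and 4.77% in the exact test). Nop14, a small subunit processing factor, came closest, with 71.1, 106 and 91.6 CPM in the controls and 132, 140 and 158 CPM (log2 0.69, SE 0.165, adjusted p = 0.0509 in edgeR).

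At 135 min of tunicamycin 0 of the 38 were called in either direction, beside 0.126% of all tested genes called higher and 0.00785% lower. At an unadjusted p under 0.05, 2 were higher and 5 lower (all tested genes: 10.1% and 8.49%), while DESeq2 and edgeR's exact test each called 1 higher and 2 lower (2.58% and 2.64% in DESeq2, 2.4% and 1.9% in the exact test). Polr1b had 40.6, 54.8 and 52.2 CPM (log2 -0.83, SE 0.183, adjusted p = 0.11 in edgeR). Wdr75, a component of the UTP complexes that bind the nascent precursor, had 35.4, 45.7 and 53.4 CPM in the controls and 18.03, 27.1 and 23.8 CPM (log2 -0.94, SE 0.237, adjusted p = 0.125 in edgeR). In both genes replicate 1, which stood apart, was the lowest. Without it, 0 of the 38 were called, beside 0.385% and 0.0943% of all tested genes. The median log2 differences of the 38 were -0.06 at 45 min and -0.10 at 135 min.

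At 405 min of tunicamycin, 13 of the 38 genes rose and 5 fell, or 34.2% and 13.2%, against 23.3% and 23.5% of all tested genes. The median log2 difference of the 38 was 0.31, against -0.01 over all tested genes. Of the 38, 29 were above 0, beside 6275 of all 12731 tested genes. None of the 3 libraries at this time stood apart by GC content. The difference between GC-rich and GC-poor genes, measured as above, was -0.33, -0.09 and -0.06 in them, against 0.06, -0.66 and -0.67 in the controls. Control replicates 2 and 3 thus lay below all libraries at 405 min on this measure. With each of the 6 libraries left out in turn, 11 of these 18 calls always remained. Without control replicate 1, 16 rose and 7 fell (all tested genes: 31.6% and 30.5%). Without tunicamycin replicate 2, 9 rose and 2 fell (15.8% and 16.1%), and without replicate 3 the counts were again 9 and 2 (16.1% and 16.6%). In the fit shared by all 6 groups, the calls of Nop10, Utp20, Heatr1, Bysl, Nop2 and Rrs1 were lost.

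**Figure D3:**
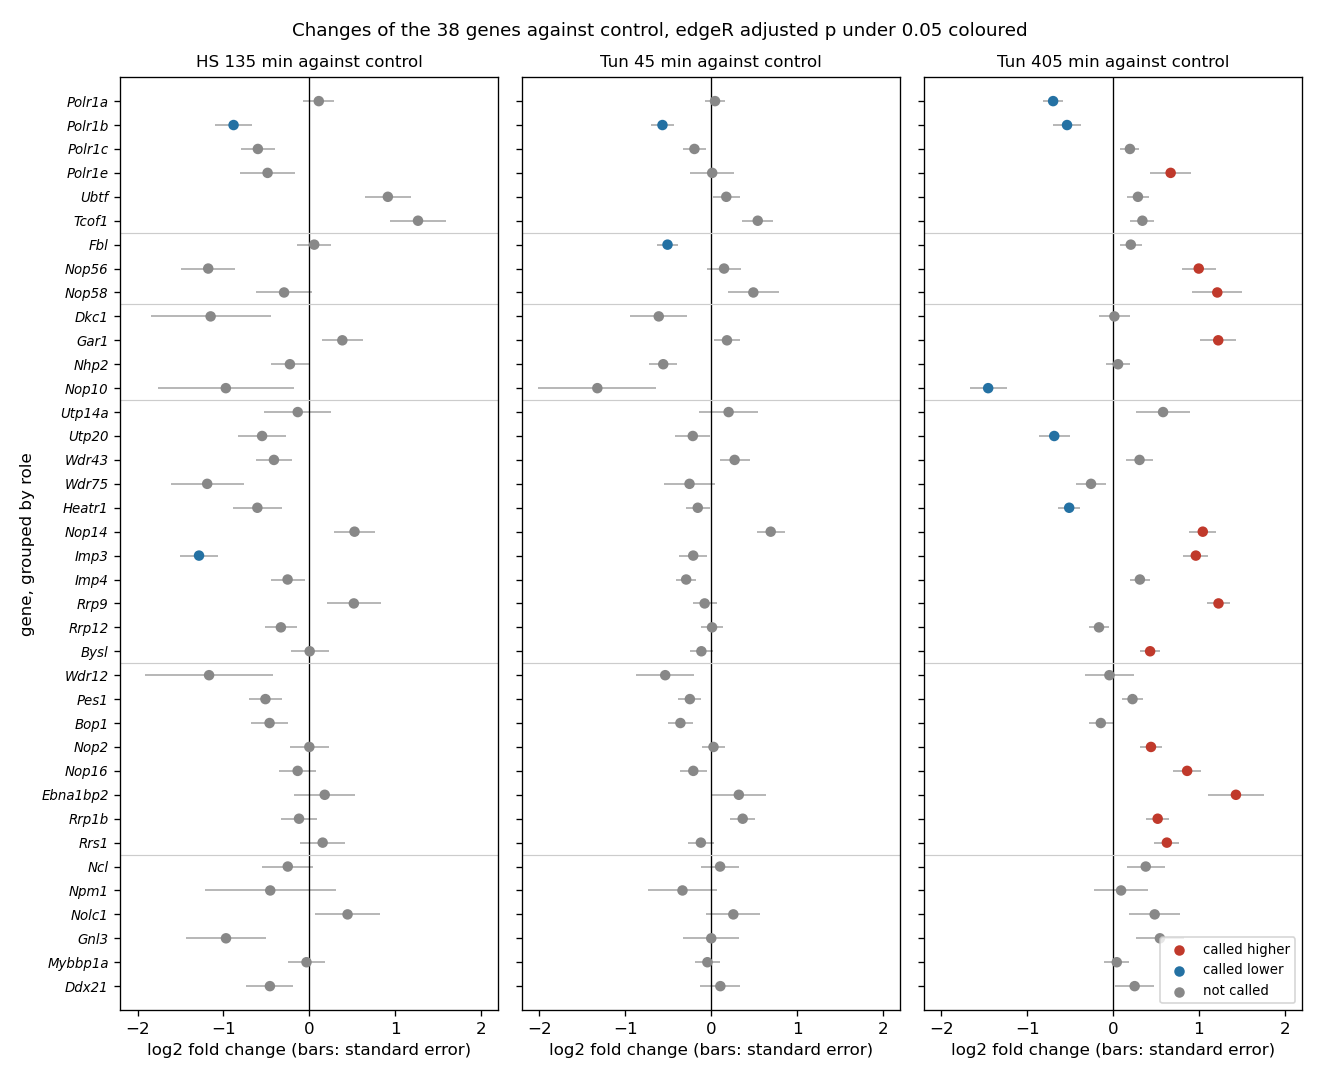
Each row is 1 of the 38 genes, grouped by role, and each point its log2 fold change against control, with the standard error as a bar, at heat shock 135 min (left), tunicamycin 45 min (middle) and tunicamycin 405 min (right). Red and blue mark an adjusted p under 0.05 in edgeR, of which there are 0 and 2, 0 and 2, and 13 and 5 in the 3 panels.

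Among the 8 assembly factors of the large subunit 5 rose and 0 fell at 405 min (all tested genes: 23.3% and 23.5%). Ebna1bp2 (chromosome 4 of mm9, 118293421 to 118300379), whose yeast counterpart is needed for maturation of the large subunit rRNA, had the largest rise of the 38. Its values were 61.6, 163 and 144.5 CPM in the controls and 273, 357 and 348 CPM at 405 min, well apart from each other (fold change 2.7, log2 1.43, SE 0.323, adjusted p = 0.00758 in edgeR). Without control replicate 1, the lowest of the controls, the log2 fold change was 1.11. Nop16 rose from 38.9 ± 6.80 to 69.6 ± 7.81 CPM (SD, n = 3; log2 0.86, adjusted p = 0.00341 in edgeR), and Rrs1, a regulator of ribosome synthesis, from 130 ± 12.1 to 198 ± 29.6 CPM (log2 0.63, adjusted p = 0.00826 in edgeR). The log2 fold change of Rrs1 was between 0.32 and 0.68 over all alternatives, and its call was also lost when a surrogate variable was added to the shared fit. The rRNA methyltransferase Nop2 (log2 0.44) and Rrp1b (0.52) rose less, and these calls were lost without control replicate 3 or without tunicamycin replicate 2 or 3, and that of Nop2 also without tunicamycin replicate 1. The Nop2 call was lost as well with an offset for GC content, with or without a replicate block, and for total counts without TMM. Pes1, Bop1 and Wdr12, which form the PeBoW complex, did not pass, with log2 differences of 0.23, -0.14 and -0.04.

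In the box C/D particles, Nop56 and Nop58 rose, while the methyltransferase Fbl did not pass. Nop58 (chromosome 1 of mm9, 59741850 to 59768354) had 40.1, 92.4 and 93.0 CPM in the controls and 157, 185 and 172 CPM at 405 min (fold change 2.32, log2 1.21, SE 0.289, adjusted p = 0.00957 in edgeR). Nop56 went from 410 ± 106 to 806 ± 47.1 CPM (SD, n = 3; log2 0.998, adjusted p = 0.00399 in edgeR). Every library at 405 min was above every control in both genes, as in 29.2% of all tested genes (29.5% lay wholly below). Fbl had 383, 473 and 410 CPM, partly within the controls (log2 0.21, SE 0.130, adjusted p = 0.224 in edgeR).

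The 4 core proteins of box H/ACA particles went separate ways. Gar1 (chromosome 3 of mm9, 129527838 to 129534074) rose, from 67.7, 92.03 and 78.1 CPM to 132, 225 and 190 CPM, with no overlap (fold change 2.34, log2 1.23, SE 0.210, adjusted p = 0.00214 in edgeR). Nop10 (chromosome 2 of mm9, 112102126 to 112103055) fell, from 50.1, 82.8 and 73.5 CPM to 26.3, 19.7 and 28.2 CPM, again with no overlap (fold change 0.365, log2 -1.45, SE 0.215, adjusted p = 0.00105 in edgeR). Dkc1, with 84.4, 128 and 132 CPM in the controls and 128, 108 and 107.5 CPM, and Nhp2 did not pass (log2 0.02 and 0.06). Nop10 was also the gene of the 38 that moved most along the GC axis. Its log2 fold change at 405 min was between -1.63 and -0.37 over all alternatives, and the call was lost in the fit shared by all 6 groups, with and without a surrogate variable.

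Among the 11 genes of small subunit processing 4 rose and 2 fell at 405 min (all tested genes: 23.3% and 23.5%). Rrp9 (chromosome 9 of mm9, 106379640 to 106387746), the U3-specific protein of the processome, had 44.7, 50.3 and 47.6 CPM in the controls and 95.8, 118 and 115 CPM at 405 min, a narrow control range far below the treated one (fold change 2.34, log2 1.23, SE 0.130, adjusted p = 0.00022 in edgeR). On the GC axis Rrp9 lay at percentile 95.8 of the tested genes, toward the side raised in the libraries that stood apart. Gar1 was at 80.3 and Imp3 at 78.9. The log2 fold change of Rrp9 was between 0.89 and 1.29 over all alternatives, and its call was kept in each. Nop14 rose from 89.5 ± 17.5 to 182 ± 7.43 CPM (SD, n = 3; log2 1.05, adjusted p = 0.00107 in edgeR). Imp3 rose from 45.7 ± 4.50 to 87.7 ± 11.2 CPM (SD, n = 3; log2 0.96, adjusted p = 0.00118 in edgeR), although it had fallen at 135 min of heat shock. At 135 min of tunicamycin Imp3 had 47.0, 27.4 and 23.5 CPM and was not called. Bysl, or bystin, rose by 0.43 on the log2 scale, a call lost without control replicate 3 or any one of the tunicamycin libraries. Utp20 (chromosome 10 of mm9, 88209353 to 88289559), a large scaffold protein of the processome, fell from 92.9, 146 and 133 CPM to 84.7, 68.5 and 74.4 CPM (fold change 0.622, log2 -0.68, SE 0.178, adjusted p = 0.0141 in edgeR). Heatr1, another large scaffold, fell by 0.51 (adjusted p = 0.0133 in edgeR). Both of these calls were lost without tunicamycin replicate 2 or 3.

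In the group of Pol I transcription, the catalytic core and an associated subunit moved in opposite directions. Polr1a (chromosome 6 of mm9, 71859067 to 71929355), the largest subunit, had 230, 254 and 219 CPM in the controls and 145.5, 134 and 148 CPM at 405 min (fold change 0.617, log2 -0.70, SE 0.118, adjusted p = 0.00203 in edgeR). These are the lowest 3 values of the 18, since all libraries of the other stressed groups lay between 232 and 294 CPM. Polr1b had 75.04, 53.1 and 52.9 CPM (log2 -0.54, SE 0.160, adjusted p = 0.0252 in edgeR), a call lost without tunicamycin replicate 2 or 3. Polr1e rose from 15.5 ± 5.16 to 24.2 ± 1.38 CPM (SD, n = 3; log2 0.67, adjusted p = 0.0482 in edgeR). Among the fits that left out 1 library, the Polr1e call remained only without control replicate 1 or 2. It was also lost for total counts without TMM and with the replicate block. Polr1c, shared by Pol I and Pol III, Ubtf and Tcof1 did not pass, with log2 differences of 0.20, 0.29 and 0.34. For Ubtf the values were 249.6, 248.5 and 214 CPM, just above the controls.

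Of the 38 genes, Polr1b was the one whose 15 stressed values, 39.7 to 75.04 CPM, all lay below its 3 control values, 85.1 to 94.5 CPM (2.25% of all tested genes did so). It was called in 3 of the 5 comparisons with control, which share these controls. Nop14 was the one whose 15 stressed values, 106 to 188.9 CPM, all lay above its controls (2.07% of all tested genes), in part by a hair, since control replicate 2 also had 106 CPM and tunicamycin 135 min replicate 2 stood just above it. Among the 5 comparisons with control, it was called at 405 min of tunicamycin only.

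The 6 multifunctional nucleolar proteins gave 0 calls in the 5 comparisons with control, in edgeR's quasi-likelihood test, its exact test and DESeq2 alike, and 0 of them had an unadjusted p under 0.05 (at 405 min, 27.2% of all tested genes were higher and 27.4% lower at that limit). Npm1 had 957.5, 903 and 914 CPM at 405 min, between control replicate 1 at 435 and the other controls (log2 0.09, SE 0.313, adjusted p = 0.825 in edgeR). Ncl had 861, 1558 and 1316 CPM in the controls and 1656, 1744 and 1388 CPM at 405 min (log2 0.38, SE 0.219, adjusted p = 0.184 in edgeR). Under heat shock Ncl had 964, 787 and 1493 CPM at 45 min and 1241, 781 and 1117 CPM at 135 min, and Npm1 at 135 min had 1099, 88.1 and 743 CPM. In both genes the lowest of these values belong to libraries that stood apart. Nolc1 and Gnl3 (nucleostemin) had log2 differences of 0.49 and 0.55 at 405 min of tunicamycin, and the helicase Ddx21 and Mybbp1a of 0.25 and 0.04.

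**Figure D4:**
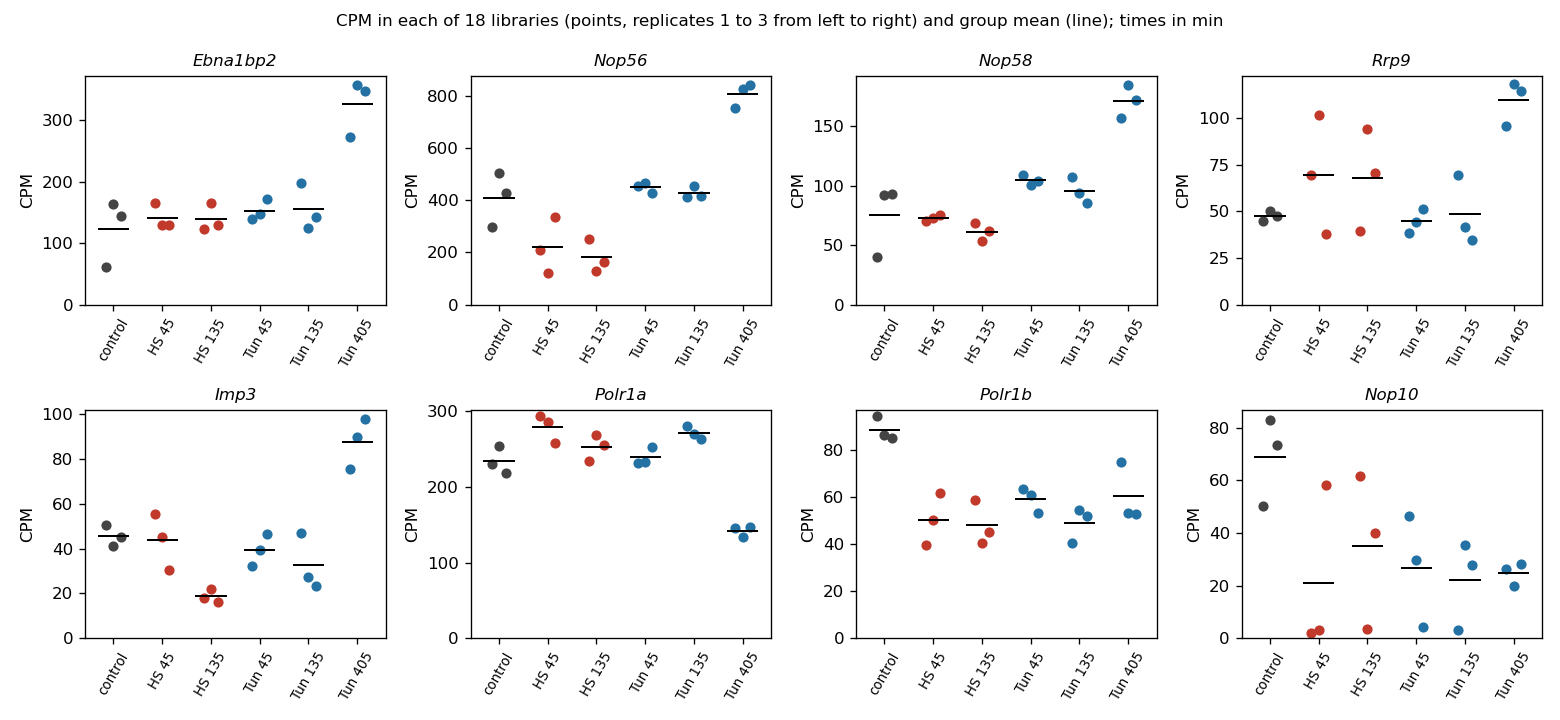
CPM of 8 of the 38 genes in each library (points, replicates 1 to 3 from left to right; grey control, red heat shock, blue tunicamycin, times in min on the x axis) with the group mean as a line. Ebna1bp2, Nop56, Nop58 and Imp3 are highest in the 3 libraries at tunicamycin 405 min, and Polr1a is lowest there. Rrp9 has its highest mean there, but heat shock 45 min replicate 2 (101.6 CPM) exceeds tunicamycin 405 min replicate 1 (95.8 CPM). Polr1b is below the controls in all stressed libraries. Nop10 is near 0 in the 4 libraries that stand apart and in tunicamycin 45 min replicate 3.

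Between 135 and 405 min of tunicamycin, 17 of the 38 genes rose and 1 fell, against 21.4% and 22.4% of all tested genes. Without tunicamycin 135 min replicate 1, the library that stood apart, the counts were 23 and 3 (all tested genes: 32.2% and 31.7%). The largest rises were those of Imp3, Rrp9 and Nop16. Imp3 went from 47.0, 27.4 and 23.5 CPM to 75.7, 89.6 and 97.9 CPM (log2 1.41, SE 0.266, adjusted p = 0.00445 in edgeR). Rrp9 went from 69.3, 41.6 and 34.6 CPM to 95.8, 118 and 115 CPM (log2 1.16, SE 0.258, adjusted p = 0.00896 in edgeR). Nop16 went from 29.0, 36.5 and 29.2 CPM to 61.6, 69.9 and 77.2 CPM (log2 1.12, SE 0.157, adjusted p = 0.00121 in edgeR). In each of these the groups did not overlap, as in 29.8% of all tested genes in this direction (26.9% in the other). All 3 of the box C/D proteins rose, Fbl included (log2 0.54, adjusted p = 0.0267 in edgeR). Polr1a was the gene that fell, from 280, 271 and 263 CPM to 145.5, 134 and 148 CPM (log2 -0.95, SE 0.118, adjusted p = 0.0007 in edgeR). The number that rose was 10 to 23 over the fits that left out 1 library, with the lowest values without tunicamycin 405 min replicate 2 (all tested genes: 13.5% higher and 14.8% lower) or 3 (13.3% and 14.6%). The number that fell was 1 to 3 over these fits, with 3 reached without tunicamycin 135 min replicate 1 as above.

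Heat shock and tunicamycin were also compared at the same times. At 45 min 0 of the 38 genes were called (all tested genes: 0.0628% higher with heat shock and 0.141% lower), and 0 at 135 min (1.3% and 0.817%). Unadjusted p-values under 0.05 were found at 45 min for 5 genes: 2 were higher and 3 lower with heat shock (all tested genes: 14.4% and 9.65%). At 135 min the same limit gave 0 and 5 (10.2% and 9.75%). Among the latter were Nop56 and Nop58, the paired scaffold proteins of box C/D particles. Nop56 had 412, 455 and 415 CPM at 135 min of tunicamycin and 251.5, 131 and 162 CPM at 135 min of heat shock, a log2 difference of -1.26 (SE 0.268, adjusted p = 0.0639 in edgeR). Without the libraries that stood apart, Nop56 passed as the 1 call among the 38 (log2 -1.07, adjusted p = 0.0149 in edgeR), beside 6.79% of tested genes called higher and 5.25% lower. DESeq2 called 0 at 45 min (all tested genes: 5.86% higher and 2.98% lower) and 3 lower at 135 min (5.62% and 4.25%), and edgeR's exact test 0 (3.58% and 2.34%) and 1 lower (4.4% and 2.93%). At 45 min, 0 were called without the 2 heat shock libraries that stood apart (0.0471% and 0.0393%). Without heat shock 45 min replicate 3 instead, 8 were called higher and 15 lower, beside 26.8% and 28.8% of all tested genes. Without heat shock 135 min replicate 1, 1 was called lower at 135 min, beside 0.715% of all tested genes.

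Beyond the 38, a list of 115 further ribosome biogenesis genes was examined, of which 106 were listed and tested. At 405 min of tunicamycin 30 of the 106 rose and 4 fell (28.3% and 3.77%, against 23.3% and 23.5% of all tested genes), with a median log2 difference of 0.27. Ltv1, an export factor of the small subunit, had the largest rise, from 33.9 ± 12.6 to 107 ± 10.3 CPM (SD, n = 3; log2 1.69, adjusted p = 0.00144 in edgeR), followed by Rrp15 (log2 1.40, adjusted p = 0.00362 in edgeR). Rrn3, the initiation factor that couples Pol I to the rRNA promoter, had the largest fall, from 92.4 ± 9.49 to 48.3 ± 9.43 CPM (SD, n = 3; log2 -0.92, adjusted p = 0.00241 in edgeR), followed by Fcf1 (log2 -0.84, adjusted p = 0.019 in edgeR). Of the 9 listed genes of Pol I transcription 1 rose and 1 fell, among 39 of the large subunit 14 and 1, and among 39 of the small subunit 9 and 2. Among 13 of the RNA exosome the counts were 4 and 0, and among 6 further multifunctional nucleolar genes 2 and 0. Under heat shock at 135 min 3 fell and 0 rose (2.83% and 0.0%, against 2.64% and 4.75% of all tested genes), with the largest falls in the large subunit export adaptor Nmd3 (30.2 ± 6.78 to 10.9 ± 0.806 CPM, SD, n = 3; log2 -1.48, adjusted p = 0.0204 in edgeR) and in Nol9 (log2 -1.38, adjusted p = 0.0297 in edgeR). With tunicamycin for 45 min 1 fell, Npm3 (log2 -0.97, adjusted p = 0.0257 in edgeR), against 2.17% of all tested genes. With heat shock for 45 min and tunicamycin for 135 min, edgeR's quasi-likelihood test called 0 of the 106. At an unadjusted p under 0.05, 3 were higher and 11 lower at the former (all tested genes: 12.3% and 7.17%) and 3 and 10 at the latter (10.1% and 8.49%), and DESeq2 called 1 lower (0.518%) and 3 lower (2.64%) there. At 135 min of heat shock, DESeq2 called 3 higher and 15 lower (9.68% and 7.28%), and edgeR's exact test 3 and 13 (9.14% and 6.45%). Without the libraries that stood apart, 1 was called higher and 9 lower at 135 min of heat shock (5.71% and 4.0%), and 0 at 45 min of heat shock (0.0% and 0.0%) and at 135 min of tunicamycin (0.385% and 0.0943%).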

How the data were processed

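mRNA-seq libraries of 6 groups, 3 each, were analysed as grouped by their labels. According to the study's methods, poly(A) RNA was sequenced on an Illumina HiSeq, aligned to mm9 and counted on RefSeq genes with the DNAnexus platform, and the aligner and counter are not given in the sources used here. Each deposited file gives, for every gene, the authors' estimated count (17.7% to 23.2% of low values not whole). It also gives the RPKM value that the authors derived from the count, gene length and library total. Values were joined by gene name. RPKM served only for levels between genes.

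Estimated counts were rounded. For each of the 8 comparisons, the 2 groups were fitted alone with edgeR 4.0.16 (R 4.3.3, TMM, quasi-likelihood test), over 12731 genes with at least 1 read in all 18 samples, with Benjamini-Hochberg adjustment and a threshold of 0.05. "Rose", "fell" and "called" refer to this test. Standard errors come from the fold change and its F statistic. Printed CPM values were scaled by TMM over all 18 libraries. No pair of replicates was alike enough to be 1 library. Nothing in the labels says that replicates are separate cultures, so p-values measure the spread between these samples, which may be technical. Alternatives were DESeq2 1.42.0 (Wald test and size factors), edgeR's exact test, no TMM, other filters, a fit shared by all groups, with a surrogate variable from sva 3.50.0, a replicate block, a lowess offset for GC content (span 0.3), a fold rule, and leaving out libraries. Leaving out the libraries that stand apart was chosen after seeing the data. GC content came from GENCODE coding transcripts on the same assembly as mm9 for 96.6% of the listed genes. Scripts were tested on simulated data. Same-numbered samples deviated together for tunicamycin 135 min against control (r = 0.314, 0.279 and 0.235 across genes, a pairing that rests on these numbers in the labels). There 0 of the 38 were called with the block as without it. Of all tested genes, 0 were called higher and 0 lower with the block, and 16 and 1 without it, so the block could not lower the count of the 38. The 3 reads given as a floor and the counts behind each value cover counting error only.

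The 38 genes and the further gene list were chosen with earlier results of these data known. Values are given in full for Ncl, Npm1, Fbl, Dkc1, Polr1a, Polr1b and Ubtf, for the 4 strongest rises and the 4 strongest falls that passed the test against control without overlap, for the 2 smallest p where none passed, and for the 3 largest differences between times or stresses. Others named, such as Nop14, Nop56 and Tcof1 under heat shock, were chosen after their values were seen.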

Additional observations from a re-analysis of the deposited data

Results flagged for a closer look

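The results below were singled out because a gene's level differed between 2 times of the same treatment, tunicamycin at 405 and at 135 min, in a direct test (edgeR's quasi-likelihood test, adjusted p under 0.05). Log2 differences are 405 min minus 135 min, n = 3 each. Of all tested genes, 21.4% were called higher and 22.4% lower in this test. In small subunit processing they were 1.41 for Imp3, 1.16 for Rrp9, 0.81 for Imp4, 0.67 for Wdr75, 0.65 for Utp14a, 0.57 for Nop14 and 0.48 for Bysl. In large subunit assembly they were 1.12 for Nop16, 1.05 for Ebna1bp2 and 0.73 for Wdr12. The box C/D proteins Nop56, Nop58 and Fbl had 0.89, 0.82 and 0.54, the box H/ACA protein Nhp2 0.64 and the nucleolar GTPase Gnl3 1.11. In Pol I transcription Polr1e had 0.99 and Polr1c 0.53, while Polr1a had -0.95. With each of the 6 libraries left out in turn, 11 of these 18 calls always remained. The calls of Polr1c, Fbl, Utp14a, Wdr75, Nop14, Bysl and Wdr12 were each lost without tunicamycin 405 min replicate 2 and without replicate 3 there. All of these but Polr1c were also lost without at least 1 other library. Tunicamycin 135 min replicate 1 stood apart by GC content, and without it the counts were 23 higher and 3 lower (all tested genes: 32.2% and 31.7%).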

How the results depend on the processing

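Counts below are given as higher and lower genes among the 38, each followed by the counts over all tested genes (12731 unless stated). At 45 min of heat shock (0 and 0) the shared fit of all 6 groups gave 1 and 4, and with a surrogate variable 4 lower. All tested genes gave 925 and 421 in the shared fit, and 640 and 673 with a surrogate variable. At 135 min of heat shock (0 and 2) the fold rule, a log2 fold of at least 1, left 1 lower, no filter gave 1 higher, DESeq2's Wald test 2 and 4, the exact test 2 higher, the shared fit 3 and 7, with a surrogate variable 2 and 11, the GC offset 1 and 8, the GC offset with the replicate block 2 higher, and leaving out the libraries that stand apart 1 lower. Of all tested genes, the fold rule left 555 and 287, and no filter gave 721 and 395 of 16417. DESeq2 called 1232 and 927 of them, and the exact test 1163 and 821. The shared fit called 1829 and 1414, and with a surrogate variable 2398 and 2616. The GC offset called 1416 and 1207 of 12431, and with the block 573 and 346. Leaving out the libraries that stand apart gave 727 and 509. At 45 min of tunicamycin (0 and 2) total counts without TMM gave 1 and 0, DESeq2's Wald test 1 higher, the exact test 1 higher, the shared fit 1 and 1, with a surrogate variable 2 and 6, the GC offset 1 higher, the GC offset with the replicate block 1 and 0, and no filter or the fold rule 0 lower. All tested genes gave 878 and 180 for total counts, 972 and 871 in DESeq2 and 899 and 607 in the exact test. They gave 423 and 209 in the shared fit, and 1701 and 1582 with a surrogate variable. The GC offset called 1032 and 940 of 12431, and with the block 338 and 236. No filter gave 473 and 228 of 16201, and the fold rule 238 and 69. At 135 min of tunicamycin (0 and 0) DESeq2's Wald test gave 1 and 2, the exact test 1 and 2, the shared fit 3 lower, with a surrogate variable 1 and 8, and the GC offset 3 lower. All tested genes gave 329 and 336 in DESeq2 and 305 and 242 in the exact test. The shared fit called 233 and 178 of them, with a surrogate variable 1293 and 1432, and the GC offset 179 and 122 of 12431. At 405 min (13 and 5) the fold rule left 5 and 1 and the shared fit 2 lower. Of all tested genes, the fold rule left 1149 and 1399, and the shared fit called 2008 and 2049. Heat shock against tunicamycin at 45 min (0 and 0) gave 1 lower in the shared fit and 3 with a surrogate variable. All tested genes gave 717 and 550 in the shared fit, and 810 and 1151 with a surrogate variable. At 135 min (0 and 0) heat shock against tunicamycin gave 3 lower in DESeq2, 1 in the exact test, 2 in the shared fit, 3 and 9 with a surrogate variable, 1 with the GC offset and 1 without the libraries that stand apart. All tested genes gave 715 and 541 in DESeq2 and 560 and 373 in the exact test. The shared fit called 998 and 773, and with a surrogate variable 2187 and 2162. The GC offset called 818 and 649 of 12431, and the fit without the libraries that stand apart 865 and 668. Tunicamycin 405 against 135 min (17 and 1) gave 5 and 0 under the fold rule, and 2 lower for total counts, for the surrogate variable and for the GC offset with or without the block, and 3 without the library that stands apart. All tested genes gave 1146 and 1533 under the fold rule, 2390 and 3073 for total counts and 4058 and 3537 with the surrogate variable. The GC offset called 3316 and 3301 of 12431, and with the block 2657 and 2698. Without the library that stands apart, 4094 and 4032 were called.

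The replicate block gave 0 lower at 135 min of heat shock and 0 lower at 45 min of tunicamycin, 12 higher and 5 lower at 405 min, and 11 higher for 405 against 135 min, and the block moved no other count by over 1.5 times. All tested genes gave 0 and 0, 21 and 0, 2691 and 2579, and 1811 and 1939 with the block in these comparisons, in this order. Outside tunicamycin 135 min against control, same-numbered samples did not all deviate together, and there the samples share only a number. Leaving out 1 library gave 0 to 5 higher and 0 to 12 lower at 45 min of heat shock, 0 to 3 and 0 to 3 at 135 min, 0 to 1 and 0 to 4 at 45 min of tunicamycin, 9 to 16 and 2 to 7 at 405 min, 0 to 8 and 0 to 15 for heat shock against tunicamycin at 45 min, 0 to 1 lower at 135 min, and 10 to 23 and 1 to 3 for tunicamycin 405 against 135 min. All tested genes gave 0 to 2735 and 0 to 3050 at 45 min of heat shock, and 10 to 1532 and 0 to 932 at 135 min. With tunicamycin they gave 55 to 1391 and 3 to 1108 at 45 min, and 2014 to 4017 and 2053 to 3880 at 405 min. Heat shock against tunicamycin gave 0 to 3416 and 0 to 3671 at 45 min, and 0 to 273 and 0 to 91 at 135 min. Tunicamycin 405 against 135 min gave 1692 to 4094 and 1855 to 4032. Why these counts moved was not tested.

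Log2 differences that changed sign belonged to genes that were not called. Ncl at 45 min of heat shock became 0.23 with the surrogate variable, 0.29 with the GC offset, 0.30 with the offset and block and 0.29 without the libraries that stand apart, and at 135 min 0.08, 0.18 and 0.18 in the first 3 of these. Npm1 at 135 min of heat shock became 0.33 with the surrogate variable, -1.09 to 0.10 over the fits without 1 library and 0.10 without the libraries that stand apart. Fbl there became -0.13 for total counts, -0.07 with the surrogate variable, -0.20 with the GC offset and -0.20 with offset and block, and Polr1a -0.06 for total counts. Ncl at 45 min of tunicamycin became -0.11 without control replicate 1. At 405 min Dkc1 became -0.09 for total counts, -0.01 in the shared fit, and -0.16 to 0.11 over the fits without 1 library, and Npm1 -0.02 for total counts and -0.23 to 0.31 over the fits without 1 library. Total counts put the median of all tested genes at -0.19 at both heat shock times, 0.10 at 45 min and -0.11 at 405 min of tunicamycin, and called 498 genes higher and 426 lower at 135 min of heat shock (605 and 336 with TMM), 878 and 180 at 45 min of tunicamycin (510 and 276), 209 and 275 for heat shock against tunicamycin at 135 min (166 and 104), and 21 and 95 at 45 min (8 and 18). The limits are the small groups, the libraries that stand apart and the GC offset, which also removes any true difference that follows GC content. Depth limits none of the 38 genes, whose lowest count was 104.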
